A study of Mus musculus with 22 samples.

Results

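The change from the acute to the subacute phase was measured in IκBα-dn mice, as the difference between spinal cord 3 weeks and 3 days after contusion. The 2 groups held 3 mice each, which are 6 of the 23 mice whose arrays entered the analysis. All were adult female GFAP-IκBα-dn mice of 3 to 4 months on a C57BL/6 background, born to heterozygous males and WT females. Their transgene, a truncated and dominant-negative IκBα, is driven by the GFAP promoter, and the paper describes NF-κB as specifically inactivated in astrocytes. All but the naive mice had a moderate contusion. WT littermates, naive mice and mice at 6 weeks were the remaining groups, which made 8 groups of 2 or 3 mice. RNA came from a whole segment of cord around the lesion, in which fewer cells of a type and less RNA per cell cannot be told apart. Mice within a group are separate animals, numbered as biological replicates in the labels. All genes on the array are described, 43379 probes in all.

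A contusion kills cells at the point of impact and opens the cord to blood. In the first days microglia and astrocytes react, monocytes enter and turn into macrophages, and glia, endothelial cells and immune cells divide. Over the following weeks division slows, a scar of astrocytes and fibroblasts closes around the lesion, macrophages loaded with lipid persist, and lymphocytes gather. Dividing cells switch on a shared program: enzymes that make DNA precursors, the replication machinery, and later the kinesins, kinetochore proteins and checkpoint kinases that part the chromosomes.

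Each 2-colour array set 1 mouse against another, and its values are log2 ratios, which hold no level of a gene in a single mouse, so that the tissue could not be checked by its markers' levels. The direction of the deposited ratios is not stated and was taken as Cy5 over Cy3; in that direction 27 of 27 genes of microglia and macrophages were above naive at 3 days in IκBα-dn cord. Of 22 arrays, 21 were used, since the labels of the remaining one conflict on the time point of a WT mouse. Of these, 9 held an IκBα-dn mouse of 3 weeks or 3 days, and 1 held both groups directly (mouse 2 of each). Both of these mice are on no other array. The change can also be read along chains of arrays: through naive IκBα-dn mice (mouse 1 of each group), through IκBα-dn mice at 6 weeks (mouse 3 of each) and through WT mice (mouse 3 at 3 weeks and mouse 1 at 3 days). The chain through naive mice links naive mouse 2 to naive mouse 1, and the chain through 6-week mice links mouse 3 to mouse 2 of that group. Each of these chains therefore also holds the difference between its linking mice. The first 3 of these 4 readings share no mouse and no array. For single genes the 4 readings are printed in place of values per mouse, with the fitted dye effect taken out. That effect was estimated from all 21 arrays, so readings that carry it also share this estimate. It cancels in the chain through 6-week mice. The fitted change combines all 21 arrays in limma, with a term for dye and a covariance for shared mice, and its median over all probes was 0.03. A probe was called at a Benjamini-Hochberg adjusted p under 0.05. The median SE of the change was 0.181 on the log2 scale.

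Genes of cell division were lower at 3 weeks than at 3 days in IκBα-dn cord, together with the macrophage enzyme Arg1, while a small group of genes, led by the chemokine Cxcl9, was higher. Of the 43379 probes, 135 were lower at 3 weeks (0.311%) and 20 were higher (0.0461%). The called probes belong to 121 named genes, 105 lower and 16 higher, and 20 of them carry no single gene symbol. Of the called probes, 90 changed more than 2-fold, 77 of them lower. At an unadjusted p under 0.05, 2948 probes were lower and 2048 higher. The calls rested on few mice. No probe passed without the direct array, or without mouse 1 at 3 weeks, though 3617 and 5075 probes had an unadjusted p under 0.05 in those fits. Without mouse 3 at 3 weeks 7 probes passed, without mouse 1 at 3 days 48 and without mouse 3 at 3 days 62. In each of these fits the 155 probes had the sign they had on all arrays and an unadjusted p under 0.05. These probes were picked by their small p on all arrays, and each fit reuses most of those arrays. Their sign and p there are thus no separate evidence. Without the dye term 0 probes passed, and 1960 had an unadjusted p under 0.05. In the limma fit on all arrays the dye effect had an adjusted p under 0.05 for 58.6% of probes.

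The largest falls by the naming rule were those of Arg1 and of 9 genes of DNA replication and mitosis. The rule ranks genes called by their lowest-numbered probe, and larger called falls of other probes, such as that of Cenpa (−2.46), are given below. Arg1, the enzyme that turns arginine into ornithine and urea and is used as a marker of one state of macrophages, was −2.72 on the direct array, −1.91 through the naive mice, −2.35 through the 6-week mice and −3.06 through the WT mice. All 4 readings were below 0, and the fitted change was −2.60 ± 0.47 (SE, adjusted p = 0.0281), a level 6.06-fold lower at 3 weeks. Esco2, which acetylates cohesin to hold sister chromatids together, was −2.61 on the direct array, −2.62 through the naive mice, −2.98 through the 6-week mice and −2.72 through the WT mice. Its fitted change was −2.53 ± 0.42 (SE, adjusted p = 0.023), and its readings lay closer to each other than those of Arg1. Mki67, the gene of the proliferation marker Ki-67, was −2.18 on the direct array, −2.40 through the naive mice, −2.56 through the 6-week mice and −1.78 through the WT mice, and its fitted change was −2.14 ± 0.39 (SE, adjusted p = 0.0281). Cdk1, the kinase that drives entry into mitosis, was −2.04 on the direct array, −2.33 through the naive mice, −2.49 through the 6-week mice and −2.11 through the WT mice. Its fitted change of −2.11 ± 0.32 (SE, adjusted p = 0.0211) is 4.32-fold, but its other probe had a change of −0.34, so the probes of Cdk1 disagree in size. Rrm2, a subunit of the reductase that makes deoxyribonucleotides, had a fitted change of −2.14 ± 0.38 (SE, adjusted p = 0.0274), with readings of −1.996, −2.35, −2.43 and −2.41 in the same order.

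**Figure D1:**
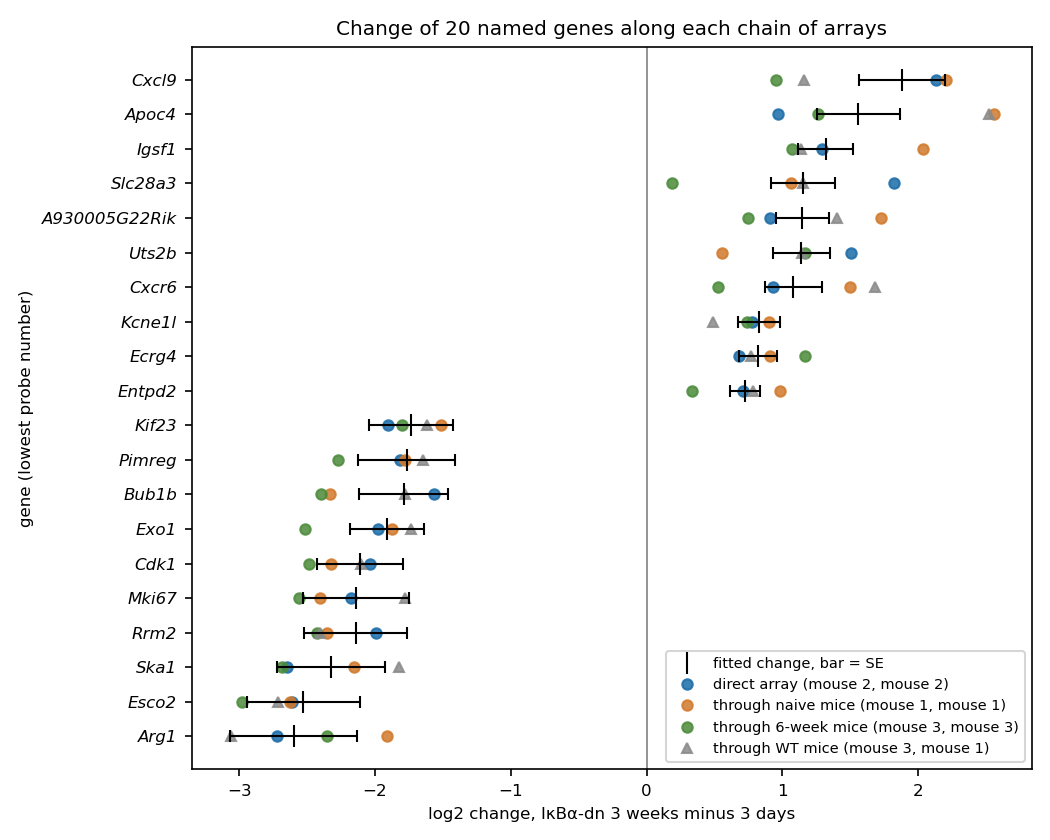
Log2 change from 3 days to 3 weeks in IκBα-dn cord (x axis) of the 10 genes with the largest called fall and the 10 with the largest called rise (y axis). Only genes called by their lowest-numbered probe were ranked. Points are the direct array and the chains of arrays, and the black mark with its bar is the fitted change with its SE. The genes were picked by a rule that asked for 1 sign on the direct array and on the chains through naive and 6-week mice, so that agreement is no finding, and the points of Slc28a3 spread from 0.19 to 1.82.

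The remaining 5 of the 10 largest falls by the naming rule were also in genes of replication and mitosis. Ska1, part of the complex that couples kinetochores to microtubules, fell by 2.32 on the log2 scale (SE 0.40). The exonuclease Exo1, which acts in DNA repair, fell by 1.91 (SE 0.27). The checkpoint kinase Bub1b fell by 1.79 (SE 0.33), and Kif23, a kinesin of the central spindle needed for cytokinesis, fell by 1.74 (SE 0.31). Pimreg, a gene expressed in mitosis, fell by 1.77 (SE 0.36). Other probes disagreed for Ska1, whose second was at −0.08, and for Kif23, whose other probes were at 0.04 and −1.37, and none of these was called. Adjusted p-values of these 5 genes from limma ran from 0.0211 for Exo1 to 0.0437 for Pimreg. The smallest adjusted p of all probes, 0.00582, was that of Cenpu, a protein of the inner kinetochore, singled out here after its value was seen. One Cenpu probe was −1.27 on the direct array, −1.15 through the naive mice, −1.02 through the 6-week mice and −0.89 through the WT mice, a fitted change of −1.12 ± 0.13 (SE). The second Cenpu probe had a change of 0.00, so the probes disagree. Cenpu was the only probe with an adjusted p under 0.01.

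Of 48 listed genes of the cell cycle and DNA replication, 47 were measured. By the probe with the lowest number, 7 of them fell and none rose, against 0.311% of all probes that fell, and 11 had at least 1 probe that fell. Values were below 0 for 44 of the 47, against 45.6% of all probes. An unadjusted p under 0.05 in that direction was found for 36, against 6.8% of all probes. The median of the list was −0.88, and −1.02 on the direct array, −0.52 through the naive mice, −1.33 through the 6-week mice and −0.95 through the WT mice. The list was chosen with earlier results of these data known. Besides Mki67, Cdk1, Rrm2, Bub1b and Kif23, the genes that fell by the lowest probe were Mad2l1, a checkpoint protein (−0.83 ± 0.13 SE, adjusted p = 0.023), and Cdc45, part of the replicative helicase (−0.89 ± 0.15 SE, adjusted p = 0.023). A further 4 fell by another probe: Cenpa, the histone of the centromere (−2.46), Kif11, the motor that separates spindle poles (−1.74), the helicase subunit Mcm3 (−1.02) and Tyms, which makes thymidylate (−1.28). For Cenpa, Kif11 and Tyms the lowest probe had values of 0.46, 0.11 and −0.17, so their probes disagree. Bub1, a mitotic kinase, had the lowest value of the list, −2.65 ± 0.59 (SE, adjusted p = 0.0604), and was not called. Beside the list, 25 of 27 genes of microglia and macrophages were below 0 with a median of −0.31, and 17 of 28 of endothelium with a median of −0.16. Their part in the cell-cycle result was not tested.

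The promoters of these 11 genes, the 250 bases before and 50 after the start in RefSeq (GRCm38.p6), were searched on both strands for 3 motifs known from cell-cycle genes. TTTGAA, the core of the cell-cycle genes homology region, was found in 7 of 11, against 18.1% of the 27025 promoters searched. CCAAT was found in 9 of 11, against 37.9%, and both together in the same 7, against 7.12%. A match to an E2F site, spelled TTTGGCGC or TTTCCCGC or TTTCGCGC or TTTGCCGC, was found in 2 of 11, against 2.32%. Of the 105 genes with a probe that fell, 86 had a promoter in the table, and 26 of these (30.2%) held TTTGAA and 50 (58.1%) held CCAAT. Of the 16 genes that rose, 12 had a promoter, and 3 held TTTGAA and 3 held CCAAT. These counts describe the letters of the windows and were not tested. The 11 genes came from a cell-cycle list, and its members without a called probe were not counted. The shares therefore cannot be tied to the fall from 3 days to 3 weeks. Promoters of 4 of the genes that fell are shown because they hold both motifs, in lower case with every match in capitals. A CCAAT on the opposite strand reads ATTGG.
Cdk1, chr10:69352863-69353162, minus strand: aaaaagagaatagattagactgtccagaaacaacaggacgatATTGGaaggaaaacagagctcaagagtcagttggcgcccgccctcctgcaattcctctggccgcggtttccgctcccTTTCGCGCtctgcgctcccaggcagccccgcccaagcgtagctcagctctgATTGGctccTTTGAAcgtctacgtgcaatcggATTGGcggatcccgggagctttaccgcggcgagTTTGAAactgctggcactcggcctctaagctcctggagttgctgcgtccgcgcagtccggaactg
Mki67, chr7:135716330-135716629, minus strand: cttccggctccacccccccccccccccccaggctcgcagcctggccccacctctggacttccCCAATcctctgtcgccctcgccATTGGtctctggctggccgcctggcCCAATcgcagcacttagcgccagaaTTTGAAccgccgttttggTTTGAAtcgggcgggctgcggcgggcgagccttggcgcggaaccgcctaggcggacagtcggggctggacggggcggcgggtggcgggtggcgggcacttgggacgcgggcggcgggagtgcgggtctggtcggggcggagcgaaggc
Kif23, chr9:61946750-61947049, minus strand: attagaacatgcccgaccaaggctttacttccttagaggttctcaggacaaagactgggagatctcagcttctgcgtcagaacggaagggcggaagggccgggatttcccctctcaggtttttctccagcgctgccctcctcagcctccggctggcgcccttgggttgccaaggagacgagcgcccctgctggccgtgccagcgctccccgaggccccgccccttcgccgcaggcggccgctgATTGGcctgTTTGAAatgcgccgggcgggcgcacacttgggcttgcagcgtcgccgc
Bub1b, chr2:118597961-118598260, plus strand: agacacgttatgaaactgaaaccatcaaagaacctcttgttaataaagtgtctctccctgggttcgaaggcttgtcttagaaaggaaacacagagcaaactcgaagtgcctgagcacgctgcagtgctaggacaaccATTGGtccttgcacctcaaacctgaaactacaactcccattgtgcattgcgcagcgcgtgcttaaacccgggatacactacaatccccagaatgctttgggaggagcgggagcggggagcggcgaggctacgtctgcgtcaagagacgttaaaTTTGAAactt
The Cdk1 window also holds a match to an E2F site, and in Kif23 the CCAAT and TTTGAA matches lie close together at the start.

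Other called genes of division lay outside the list and were chosen here after their values were seen. They included the kinesin Kif15 (−1.92), the condensin subunit Ncapg (−2.19), Cep55, which acts in the final cut between daughter cells (−2.41), the histone chaperone Asf1b (−1.42), the centrosome kinases Nek2 (−1.64) and Plk4 (−0.86), the checkpoint kinase Chek1 (−0.89) and Ezh2, the histone methyltransferase of the polycomb complex (−0.91). All of these fell. Probes that were not called lay nearer to 0 for Kif15 (−0.26 and −0.25), Cep55 (−0.46), Ncapg (−1.10) and Plk4 (from −0.49 to 0.21). Cdkn1a, the gene of the cell-cycle inhibitor p21, does the opposite in the cycle and also fell, in 7 of its 10 probes. These ran from −0.92 to −0.76 over all 10, and the lowest-numbered probe (−0.86 ± 0.18 SE, adjusted p = 0.0555) missed the threshold.

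Relative to naive IκBα-dn cord, cell-cycle genes were high at 3 days and near naive at 3 weeks. Differences from naive use the same mice as the change itself, so these values stand beside it and are not separate evidence. The median of the list was 1.08 above naive at 3 days, with 31 of 47 genes called higher, against 5.08% of all probes. At 3 weeks the median was 0.15 and 0 of 47 were called, against 0.592% of all probes called higher and 0.0277% called lower. Mki67 was 2.81 ± 0.40 (SE) above naive at 3 days and 0.67 ± 0.40 at 3 weeks. Esco2 was 2.64 ± 0.42 above naive at 3 days and 0.11 ± 0.42 at 3 weeks. Between 3 and 6 weeks the list had a median change of 0.41, with 0 genes called higher and 1 lower, where 8.05% of all probes were called higher and 11.6% lower. Arg1 was 3.34 ± 0.48 above naive at 3 days, the highest of the 20 genes plotted by time, and 0.74 ± 0.47 at 3 weeks.

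**Figure D2:**
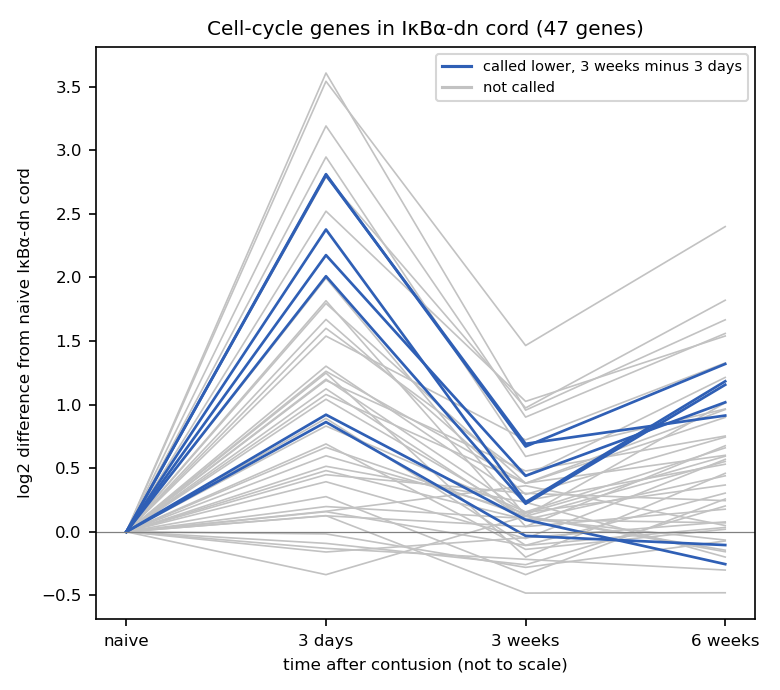
Fitted log2 difference from naive IκBα-dn cord (y axis) of the 47 measured cell-cycle genes at 3 days, 3 weeks and 6 weeks (x axis, not to scale), 1 line per gene. The 7 genes in blue fell from 3 days to 3 weeks by the lowest probe, and all 7 peak at 3 days.

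The largest rise by the naming rule was that of a chemokine. Cxcl9, an interferon-γ-induced chemokine that attracts T cells through CXCR3, was 2.13 on the direct array, 2.20 through the naive mice, 0.95 through the 6-week mice and 1.16 through the WT mice. Its fitted change was 1.88 ± 0.32 (SE, adjusted p = 0.0247), 3.68-fold, and the reading through the 6-week mice was the smallest of the 4, well below that through the naive mice. Cxcr6, the receptor of the chemokine CXCL16 on T and NK cells, was 0.93 on the direct array, 1.498 through the naive mice, 0.52 through the 6-week mice and 1.69 through the WT mice, a fitted change of 1.08 ± 0.21 (SE, adjusted p = 0.0367). The lymphoid receptor gene Klre1, known from NK cells and chosen after its value was seen, rose by 1.05 ± 0.19 (SE) in 1 probe, and its other was at 0.44. Of 13 probes of Ighm, the immunoglobulin M heavy chain, 1 rose (0.68), and the 13 ran from 0.04 to 0.96. Of 22 measured genes of T and B lymphocytes, 0 were called by the lowest probe, 5 had an unadjusted p under 0.05 and were higher (4.72% of all probes were), and the median was 0.16. Cd3d, a chain of the T cell receptor complex, had a change of 0.72 ± 0.16 (SE, adjusted p = 0.0643), with readings of 0.53, 1.18, 0.32 and 1.24.

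The remaining rises were in genes of several kinds. Apoc4, an apolipoprotein, was 0.97 on the direct array, 2.56 through the naive mice, 1.26 through the 6-week mice and 2.52 through the WT mice, a fitted change of 1.56 ± 0.30 (SE, adjusted p = 0.0382). Igsf1, an immunoglobulin superfamily membrane protein, rose by 1.32 ± 0.21 (SE) in the lowest probe. One of its other 3 probes rose by 1.10, and the others were at −0.06 and 0.08, so its probes disagree. Slc28a3, a nucleoside transporter, was 1.82 on the direct array, 1.06 through the naive mice, 0.19 through the 6-week mice and 1.16 through the WT mice, the widest spread among the 10 rises plotted relative to its fitted change of 1.15 ± 0.23 (SE, adjusted p = 0.0443). Ecrg4, a secreted protein of choroid plexus and ependyma, rose by 0.82 ± 0.14 (SE), and Entpd2, an enzyme that cleaves extracellular ATP, rose by 0.72 ± 0.11 (SE). Uts2b, a urotensin peptide (1.14), the potassium channel subunit Kcne1l (0.83) and the unannotated transcript A930005G22Rik (1.15) completed the 10. Cd59a, which blocks the membrane attack complex of complement, was 0.70 on the direct array, 0.57 through the naive mice, 0.66 through the 6-week mice and 0.68 through the WT mice, and its fitted change was 0.68 ± 0.12 (SE, adjusted p = 0.0258). Chodl, a lectin known from motor neurons, and Igfbpl1, both chosen after their values were seen, rose by 1.40 and 0.99 in 1 probe each, and their other probes were at 0.29 and 0.33. The second probe of Slc28a3 was at 0.15.

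Genes that rose stood in different places relative to naive cord. Cxcl9 was 0.29 ± 0.32 (SE) from naive at 3 days and 2.17 ± 0.32 at 3 weeks, and Apoc4 was −0.06 ± 0.31 and 1.496 ± 0.31. Both were called above naive at 3 weeks and not at 3 days. Uts2b was −1.17 ± 0.22 at 3 days and −0.03 ± 0.21 at 3 weeks, and Cd59a was −0.66 ± 0.12 and 0.01 ± 0.12. Both were called below naive at 3 days (1.22% of all probes were) and were near naive at 3 weeks. Entpd2 and A930005G22Rik were also called below naive at 3 days. So were the called probes of Klre1 (−0.73 ± 0.19) and Chodl (−1.39 ± 0.29), which were at 0.31 and 0.01 at 3 weeks and not called there.

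**Figure D3:**
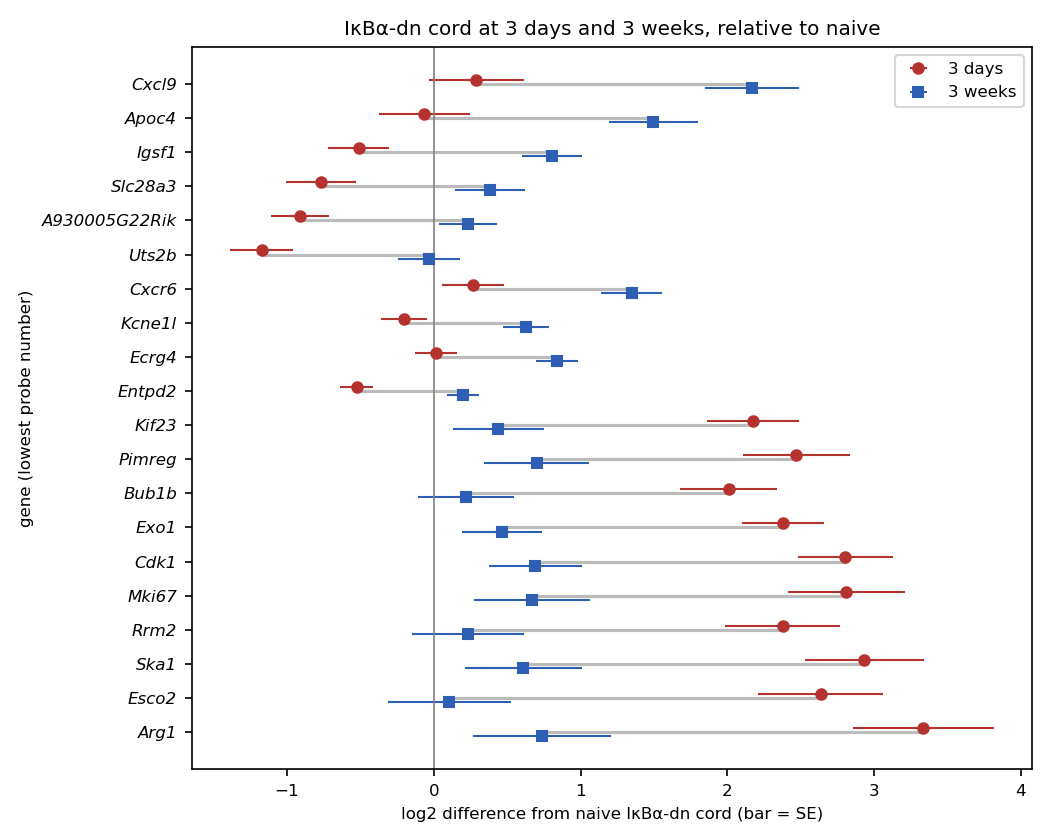
Fitted log2 difference from naive IκBα-dn cord (x axis, bar = SE) at 3 days and 3 weeks for the 10 largest called falls and the 10 largest called rises (y axis). Only genes called by their lowest-numbered probe were ranked. The genes that fell sit between 2.01 and 3.34 at 3 days and between 0.11 and 0.74 at 3 weeks.

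Of 27 measured genes of microglia and macrophages, 0 were called by the lowest probe, and at an unadjusted p under 0.05 4 were lower and 1 was higher, where 6.8% and 4.72% of all probes were. Values were below 0 for 25 of 27 (45.6% of all probes were), with a median of −0.31 and readings of −0.39 on the direct array, −0.29 through the naive mice, −0.40 through the 6-week mice and −0.32 through the WT mice. The median was 1.10 above naive at 3 days, with 17 genes called higher, where 5.08% of all probes were. At 3 weeks it was 0.72, with 7 genes called higher, where 0.592% of all probes were. Msr1, a scavenger receptor of macrophages, fell in 1 of its 3 probes (−1.89 ± 0.38 SE, adjusted p = 0.0431), and the 3 ran from −2.08 to −1.09. Adgre1, a surface marker of macrophages, had a change of −1.07 ± 0.44 (SE, adjusted p = 0.358) in 1 probe and of 0.05 in the other, so its probes disagree in sign. Outside the list, and chosen after their values were seen, the macrophage scavenger receptor Stab1 (−1.37 ± 0.26 SE, adjusted p = 0.03), the actin bundler of leukocytes Lcp1 (−0.87 ± 0.14 SE, adjusted p = 0.023) and coagulation factor gene F10 (−1.64 ± 0.30 SE, adjusted p = 0.0281) fell. Il7r, a receptor of lymphocytes that myeloid cells can also express, fell in 1 probe (−2.20 ± 0.41 SE, adjusted p = 0.03), and its other probes were at 0.04 and 0.14. The second probe of Lcp1 was at −0.39. Probes of Stfa2 (−1.24) and Cstdc6 (−1.80), stefins with near-identical copies whose signals may not be separable, fell as well. The related gene Stfa1 is listed with neutrophils.

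Chemokines, cytokines and their receptors were mostly not called. Of 43 measured chemokines and receptors, Cxcl9 and Cxcr6 rose, where 0.0461% of all probes did, and none fell, where 0.311% did. The median was −0.04. At an unadjusted p under 0.05 9 were higher and 4 lower, where 4.72% and 6.8% of all probes were. Ccr1, a receptor for inflammatory chemokines on monocytes, had a change of −2.39 ± 0.56 (SE, adjusted p = 0.0732) with readings of −2.57, −1.27, −2.19 and −3.93, and Ccl2, a chemokine for monocytes, one of −1.12 ± 0.40 (SE, adjusted p = 0.277). Cxcl10, a ligand of CXCR3 like Cxcl9, had a change of 1.96 ± 0.61 (SE, adjusted p = 0.192), and its reading through the WT mice (0.22) lay far from the others, which ran from 2.18 to 2.30. Of 33 cytokines and receptors of inflammation, 1 fell, where 0.311% of all probes did. At an unadjusted p under 0.05 5 were lower and 1 was higher. The gene that fell was Il1r2, the decoy receptor that binds interleukin-1 without signalling. It was −1.07 on the direct array, −1.08 through the naive mice, −1.39 through the 6-week mice and −1.19 through the WT mice. Its fitted change was −1.12 ± 0.16 (SE, adjusted p = 0.0211). Its second probe had a change of −0.48 and was not called. Il1b had a change of 0.02 ± 0.24 (SE, adjusted p = 0.986), and it was called above naive at both times, by 1.32 at 3 days and 1.34 at 3 weeks. The sign of its change turned under several other settings, and its 10 probes ran from −0.03 to 0.37. Tnfrsf1b, the gene of TNF receptor 2, had a change of −0.95 ± 0.24 (SE, adjusted p = 0.106) with readings of −0.92, −0.86, −1.03 and −1.25, and its 11 probes ran from this lowest value to 0.02. Of 26 genes of NF-κB subunits, inhibitors and Toll-like receptors, 0 were called and 6 had an unadjusted p under 0.05, 5 of them lower. At that p 6.8% of all probes were lower and 4.72% higher.

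Of 31 measured interferon-stimulated genes, 0 were called, 6 had an unadjusted p under 0.05 and were higher (4.72% of all probes were), and the median was 0.23, from −0.02 through the WT mice to 0.42 through the naive mice. Ifit1, a sensor of viral RNA, had a change of 1.04 ± 0.38 (SE, adjusted p = 0.282). Of 19 complement genes, Cd59a rose, where 0.0461% of all probes did, and none fell, where 0.311% did. At an unadjusted p under 0.05 2 were higher and 2 lower. The anaphylatoxin receptor C3ar1 had a change of −1.15 ± 0.31 (SE, adjusted p = 0.131). Of 33 genes of lysosomes and lipid handling, Apoc4 rose and none fell, beside the same shares of all probes. At an unadjusted p under 0.05 3 were higher and 6 lower. Plin2, which coats lipid droplets, had a change of −0.83 ± 0.19 (SE, adjusted p = 0.0709). Hmox1, the enzyme that degrades heme, had a change of −1.45 ± 0.31 (SE, adjusted p = 0.0554), and it ranged from −2.17 through the 6-week mice to −0.45 through the naive mice. Of 29 genes of cell death, Ripk3, the kinase of necroptosis, fell by the lowest probe (−1.35 ± 0.27 SE, adjusted p = 0.0437), where 0.311% of all probes fell. Its readings were −1.43, −1.78, −1.12 and −1.36. Values were below 0 for 24 of the 29 (45.6% of all probes were). At an unadjusted p under 0.05 9 were lower and 0 higher, where 6.8% and 4.72% of all probes were. Mcl1, an inhibitor of apoptosis, had a change of −1.05 ± 0.27 (SE, adjusted p = 0.107) in 1 probe and of −0.08 in the other.

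Astrocytes, the cells in which the transgene is meant to act, gave no called gene by the lowest probe. Of 23 measured genes of astrocytes the median was 0.06, and 4 had an unadjusted p under 0.05, 3 of them higher. At that p 4.72% of all probes were higher and 6.8% lower. Gfap, the filament whose promoter drives the transgene, had a change of −0.21 ± 0.34 (SE, adjusted p = 0.88), with readings of −0.63, −0.32, −0.12 and 0.33, which do not share a sign, and without the direct array it was 0.07. Its 12 probes ran from −0.60 to −0.12. Of 32 genes of reactive astrocytes, 27 had values below 0 (45.6% of all probes did), and the median was −0.33. At an unadjusted p under 0.05 9 were lower and 2 higher. This list had similar medians on all 4 readings, from −0.41 through the naive mice to −0.37 through the 6-week mice. Its smallest p-values belonged to Fkbp5, a chaperone induced by glucocorticoids (−0.80 ± 0.18 SE, adjusted p = 0.0707), and Sphk1, which makes sphingosine-1-phosphate (−0.89 ± 0.21 SE, adjusted p = 0.0736). Vim, the gene of vimentin, had a change of −0.30 ± 0.20 (SE, adjusted p = 0.615), and −0.84 in its other probe. The second probe of Sphk1 was at −0.48. The matrix protein gene Tnc, listed with fibroblasts and named after its values were seen, fell in 2 of 5 probes, by 1.59 in the larger case, and the highest of the 5 was 0.49, so the probes disagree. Podoplanin (Pdpn) fell in 1 probe (−0.90 ± 0.19 SE, adjusted p = 0.0482), and moesin (Msn, −0.96 ± 0.14 SE, adjusted p = 0.0211) fell in 2 probes. For both genes the probe with the lowest number was not called. The integrin chain Itgav (−1.06 ± 0.19 SE, adjusted p = 0.0281) fell in 1 of 6 probes, the others of which ran from −0.45 to 0.08. Pdpn, Msn and Itgav were chosen after their values were seen.

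Neurons, myelin and the oligodendrocyte lineage also gave 0 called genes, of 45, 25 and 21 measured, with medians of 0.09, 0.10 and 0.15. At an unadjusted p under 0.05 4 neuronal genes, 3 of myelin and 3 of the oligodendrocyte lineage were higher and 1 of each list was lower, where 4.72% of all probes were higher and 6.8% lower. The lower ones were Pdyn, the precursor of dynorphin (−0.67 ± 0.20 SE, adjusted p = 0.187), Hapln2, a link protein at nodes of Ranvier (−0.32 ± 0.11 SE, adjusted p = 0.265), and Sox11, a transcription factor of immature neural cells (−0.47 ± 0.17 SE, adjusted p = 0.28). Opalin, a protein of mature oligodendrocytes, had a change of 0.56 ± 0.13 (SE, adjusted p = 0.0801) with readings of 0.43, 0.54, 0.64 and 0.76, all above 0. Mbp, the gene of myelin basic protein, had a change of 0.40 ± 0.21 (SE, adjusted p = 0.485), and its readings ran from 0.00 through the WT mice to 0.89 on the direct array. Hes5, a Notch target of progenitors and astrocytes, had a change of 0.71 ± 0.18 (SE, adjusted p = 0.102). The neurofilament gene Nefl had a change of 0.52 ± 0.15 (SE, adjusted p = 0.166). Of 53 genes of axon guidance and growth, Plxnd1, a semaphorin receptor, fell (−0.92 ± 0.18 SE, adjusted p = 0.0402), where 0.311% of all probes did. At an unadjusted p under 0.05 8 of this list were lower and 2 higher. In the remaining lists, among them endothelium, fibroblasts, matrix proteases, Schwann cells and hypoxia, 0 genes were called by the lowest probe, and 0 to 9 genes a list had an unadjusted p under 0.05. At that p 7 of 27 immediate early and heat shock genes were lower and 1 was higher. Of 36 genes of matrix proteases, inhibitors and proteoglycans 6 were lower and 3 higher, and of Schwann cells 0 were lower and 0 higher. Igfbp2, an IGF-binding protein listed with fibroblasts, had a change of −1.22 ± 0.30 (SE, adjusted p = 0.0878). Genes of red blood cells, of which 5 of 10 listed were measured, were all above 0 with a median of 0.56, and those of neutrophils had a median of 0.39. The part of blood or of a changed mix of cells in the results was not tested.

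**Figure D4:**
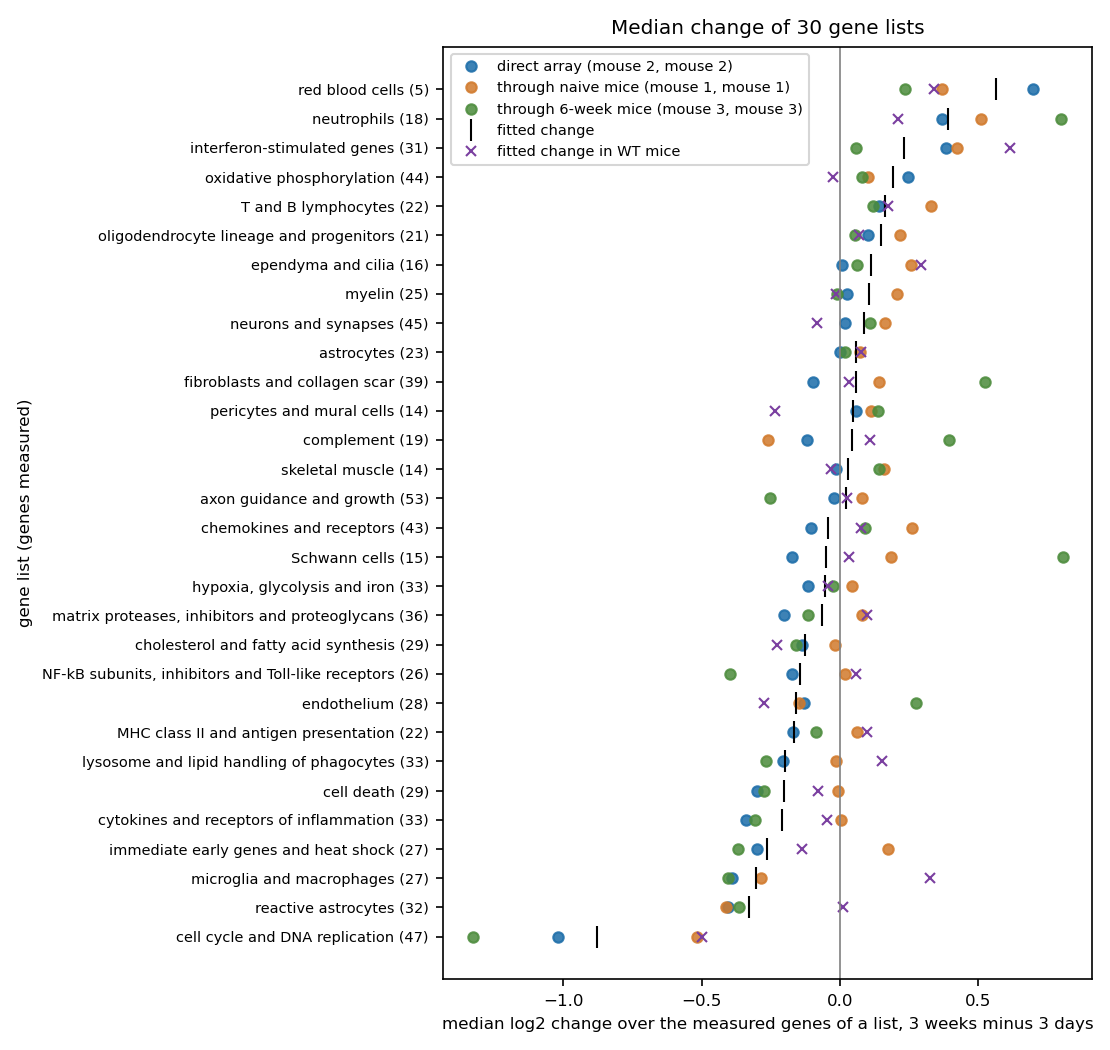
Median log2 change from 3 days to 3 weeks (x axis) over the measured genes of each of 30 gene lists (y axis, number measured in brackets). Circles are the direct array and the chains through naive and 6-week IκBα-dn mice, the black mark is the fitted change, and the cross is the fitted change in WT mice. The cell-cycle list is lowest, at −0.88.

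WT mice gave the same comparison without the transgene, with 2 mice at 3 weeks and 3 at 3 days. In WT cord 0 probes were called from 3 days to 3 weeks (0%), 3598 had an unadjusted p under 0.05, and the smallest adjusted p was 0.159. The median SE was 0.203. The difference in change between the genotypes was tested directly, and 0 probes passed (0%), 2817 had an unadjusted p under 0.05, and the smallest adjusted p was 0.668. So a call in IκBα-dn mice and none in WT mice does not show a difference. The median SE of the difference was 0.239. The 135 probes called lower in IκBα-dn mice had a median change of −1.10 there and of −0.52 in WT mice. The 20 called higher had medians of 1.12 and 0.64. These probes were picked by their IκBα-dn values, so the smaller WT medians are a description only.

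Gene by gene, the change was close in the genotypes for some of the named genes and far apart for others, with no difference past the threshold. Apoc4 was 1.56 in IκBα-dn and 1.61 in WT mice, a difference of −0.05 ± 0.40 (SE, adjusted p = 1). Cxcl9 was 1.88 in IκBα-dn and 1.64 in WT mice, a difference of 0.23 ± 0.42 (SE, adjusted p = 0.992). Cd59a was 0.68 in IκBα-dn and 0.02 in WT mice, a difference of 0.66 ± 0.16 (SE, adjusted p = 0.705), and Il1r2 was −1.12 in IκBα-dn and −0.31 in WT mice, a difference of −0.81 ± 0.21 (SE, adjusted p = 0.705). The list medians of the cell cycle were −0.88 in IκBα-dn and −0.50 in WT mice. Microglia and macrophage genes had medians of −0.31 and 0.33, with 9 of 27 genes lower in the difference at an unadjusted p under 0.05 and 0 called, where 3.01% of all probes were lower at that p. Ccr1, chosen by its small p in IκBα-dn mice, was −2.39 in IκBα-dn and 0.07 in WT mice, a difference of −2.46 ± 0.73 (SE, adjusted p = 0.705), and C3ar1 was −1.15 in IκBα-dn and 0.37 in WT mice, a difference of −1.52 ± 0.41 (SE, adjusted p = 0.705). Interferon-stimulated genes had medians of 0.23 in IκBα-dn and 0.61 in WT mice, and reactive astrocyte genes −0.33 and 0.01. Cxcl12, a chemokine that guides progenitor cells through CXCR4, was 0.62 in IκBα-dn and −0.50 in WT mice, a difference of 1.12 ± 0.26 (SE, adjusted p = 0.705). That is the lower-numbered of its probes, and its other probe was at −0.09 in IκBα-dn mice, so the probes disagree in sign.

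**Figure D5:**
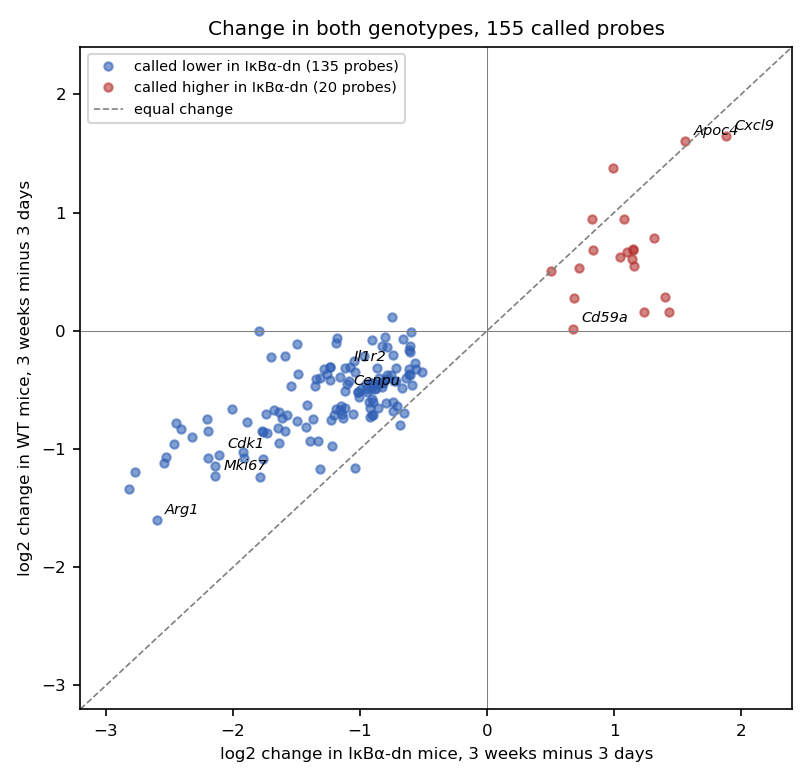
Fitted log2 change from 3 days to 3 weeks in IκBα-dn mice (x axis) and in WT mice (y axis) for the 155 probes called in IκBα-dn mice, with the line of equal change. Most points lie nearer to 0 in WT than in IκBα-dn mice, the scale on which they were chosen, and Cd59a sits at 0.02 in WT mice.

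Further called falls were in genes with other roles, all chosen after their values were seen. Phex, a membrane endopeptidase known from bone, was −2.15 on the direct array, −1.61 through the naive mice, −1.20 through the 6-week mice and −1.12 through the WT mice, a fitted change of −1.68 ± 0.29 (SE, adjusted p = 0.0254). Klk8, the serine protease neuropsin, fell by 1.26 (SE 0.24), and Gpx3, a secreted glutathione peroxidase, fell by 0.80 (SE 0.15). Their WT changes were −0.36 and −0.05. The immediate early gene Egr1 had a change of −0.88 ± 0.22 (SE, adjusted p = 0.0978) and was not called.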

How the data were processed

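RNA of single mice was hybridised in pairs to 2-colour Agilent whole mouse genome arrays. Per the methods, the authors scanned them with GenePix, filtered spots by quality, and normalised them in limma by lowess within and quantiles between arrays, and the log2 ratios were used as deposited. Their log base and direction are not stated, and were taken as log2 of Cy5 over Cy3. Arrays had medians from −0.08 to 0.05 and correlated with each other from −0.32 upwards. Ratios hold no depth, and the number of arrays limits the precision. The array whose title and description disagree on the time of a WT mouse was left out.

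The remaining 21 arrays were fitted with limma 3.58.1 in R 4.3.3 by generalised least squares: each array was coded as the difference of the groups of its mice (Cy5 less Cy3), with 1 term for dye and a covariance for arrays that share a mouse (mouse share of variance 0.45). P-values were adjusted by Benjamini-Hochberg over 43379 probes. Of these, 33653 carried 1 gene symbol, 56 several and 9670 none in the platform annotation, and the probe with the lowest number stood for a gene. The steps were tested on simulated data. Figures were drawn with matplotlib 3.10.9.

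The members and lists were chosen with earlier results of these data known. Of 919 listed symbols 850 were measured, and the others are not analysed here. The text names the 10 largest called rises and falls with 1 sign on the direct array and on the chains through naive and 6-week mice, members of each of 30 lists from those with the smallest p, and anchor genes such as Gfap, Vim, Mbp, Ccl2 and Il1b, or says that a gene was chosen after its values were seen. The 10 largest were ranked among genes called by their lowest-numbered probe. Alternatives changed the dye term, the covariance, scaling, probes, thresholds, arrays and mice.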

Additional observations from a re-analysis of the deposited data

How the results depend on the processing

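On all arrays 155 probes were called, 20 higher and 135 lower. Calls went up to 309 (50 higher, 259 lower) with arrays taken as independent, where 1 probe passed in WT mice and 1 in the genotype difference. They went up to 235 (209 lower) with arrays scaled to the same spread, where 3 passed in WT mice, and to 245 (31 higher, 214 lower) without the array of the largest residual spread, a setting chosen after seeing the data, where 2 passed in WT mice. They went down to 102 (86 lower) over the mean of a gene's probes and to 1 (0 higher, 1 lower) at an adjusted p under 0.01. At an adjusted p under 0.001 with a fold over 2 they went down to 0 (0 higher, 0 lower). A moderated F test over the 8 groups at an adjusted p under 0.001, with a fold over 2 in this change, left 79 probes (12 higher, 67 lower). That test asks for any difference among the 8 groups, so the 79 are not calls of this change. Without the dye term 0 passed (0 higher, 0 lower; 1960 at an unadjusted p under 0.05), as with only the 6 arrays of 2 IκBα-dn mice (3280 at an unadjusted p under 0.05). Leaving out a mouse left 0 to 62 called probes, 0 to 14 higher and 0 to 48 lower, with 0 to 1 in WT mice. The cause of these differences was not tested.

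With a replicate block 114 probes passed, 16 higher and 98 lower, of which 99 were among the 155. The replicate numbers only name mice, and mouse 2 of both groups lie on 1 array and no other, so the pairing could not be checked. A dye term for each number of the description codes gave 162, 17 higher and 145 lower. The sign of Il1b turned with arrays independent (−0.0142), without the dye term (−0.0319), and among the left-out mice, over which it ran from −0.205 to 0.178, including −0.00402 without mouse 3 at 3 weeks and −0.0796 without mouse 1 at 3 days. Gfap ran from −0.458 over these to 0.0731 without the direct array. The median of the cell-cycle list stayed between −0.998 and −0.779 in all settings run.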

Other observations

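Some lists held small shifts or chains that disagreed, with 0 genes called by the lowest probe. Of 44 measured genes of oxidative phosphorylation, 35 were above 0 and 6 of them at an unadjusted p under 0.05 (4.72% of all probes were higher at that p), with a median of 0.19 and medians of 0.24 on the direct array, 0.10 through the naive mice, 0.08 through the 6-week mice and −0.03 through the WT mice. Cox4i1, a subunit of cytochrome c oxidase, had a change of 0.42 ± 0.16 (SE, adjusted p = 0.301). The 15 genes of Schwann cells had a median of 0.80 through the 6-week mice and of −0.05 in the fit. The 39 genes of fibroblasts and the collagen scar had a median of 0.52 through the 6-week mice, against −0.10 on the direct array. Col1a1, a chain of collagen I, was 3.59 through the 6-week mice and 0.79 on the direct array, with a fitted change of 0.91 ± 0.59 (SE, adjusted p = 0.601), and its 12 probes ran from −0.34 to 0.92. The chain through 6-week mice also holds the difference between its linking mice, and the part of that difference was not tested.

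Of 18 genes of neutrophils, 12 were above 0, with a median of 0.39. At an unadjusted p under 0.05 4 were higher and 2 lower, where 4.72% and 6.8% of all probes were. The lower ones were Chil3, a chitinase-like protein also made by macrophages, with the largest change of the list (−2.03 ± 0.86, SE, adjusted p = 0.368), and the lectin receptor gene Clec4e (−0.67 ± 0.29, SE, adjusted p = 0.377). Camp, the gene of the antimicrobial peptide cathelicidin, had a change of 1.57 ± 0.62 (SE, adjusted p = 0.326), with readings of 1.28, 2.61, 2.43 and 3.37 on the direct array and through the naive, 6-week and WT mice. S100a9, a subunit of calprotectin, had a change of 1.02 ± 0.71 (SE, adjusted p = 0.634), with readings of 0.92, 2.72, 2.37 and 1.92. None of these 4 was called. Outside the list, called probes of the stefin genes Stfa2 (−1.24) and Cstdc6 (−1.80) fell.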
